A study of Mus musculus with 43 samples.

Results

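Inguinal white adipose tissue (WAT) of female mice lacking insulin receptor substrate 1 was compared with that of wild type mice when both had been on dietary restriction (DR). The labels give the KO groups as global Irs1-/- mice and the WT groups as Irs1+/+. At 10 weeks of age they stayed on ad libitum (AL) chow or were stepped down to 30% less than the AL intake, given once a day in the late afternoon, and tissue was taken at 15 months of age after 12 months of that restriction. KODR and WTDR name the restricted groups and KOAL and WTAL the AL groups, which are used here only for reference. The labels list 3 KODR and 2 WTDR libraries from WAT, 5 of the 43 libraries of the series, all made from poly(A)-selected RNA. The authors pooled the libraries of a group into 1 FPKM value per gene (fragments per kilobase of transcript, scaled to the mapped fragments of the library) with a 95% confidence interval, which is printed here in parentheses after the value. The spread used below is that of this interval, since single libraries were not analysed here and their depth is therefore unknown.

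IRS1 is the docking protein through which the insulin and IGF-1 receptors pass their signal to phosphatidylinositol 3-kinase and AKT. In fat cells this pathway drives glucose uptake and lipid synthesis and holds back lipolysis. Inguinal fat is a subcutaneous depot that in female mice surrounds the mammary gland and an inguinal lymph node, and also holds vessels, macrophages and matrix-forming stromal cells. Mice without Irs1 are small and insulin resistant, and DR reduces fat mass.

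Of 42349 entries in the table, 15072 had an FPKM of at least 1 in KODR or WTDR. The 14820 of them with a value above 0 in both groups were tested, while 210 were listed at 0 in WTDR and 42 at 0 in KODR. An entry below 1 in 1 group was tested only if the other group was higher. Lists with many low values in 1 group therefore lean that way. Each log2 ratio of the FPKM values went into a Wald test, two-sided, whose standard error (SE) came from the authors' intervals, and entries with a Benjamini-Hochberg adjusted p under an FDR of 10% are called here. Log2 differences are KODR minus WTDR and are given ± SE. The intervals were wide. The median standard deviation was 62.3% of the FPKM in WTDR, the widest of the 16 groups of the table, and 46.3% in KODR, and the median SE of a log2 difference was 1.17. A p that missed the threshold therefore does not show that a gene was alike in both genotypes.

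Irs1, on the minus strand of chromosome 1 (GRCm38 chr1:82233101-82291416), had an FPKM of 6.56 (2.33 to 10.8) in WTDR and 2.58 (1.54 to 3.62) in KODR. The log2 difference was -1.35 ± 0.55, with an unadjusted p of 0.0142 and an adjusted p of 1.00 in the Wald test, so the lower value in the group labelled KODR was not called. In the AL groups the value went the other way, from 2.47 (1.39 to 3.54) in WTAL to 5.37 (2.94 to 7.80) in the group labelled KOAL. Of the genotype comparisons within a tissue and diet, WAT under DR was the only one with a lower value in the group labelled KO. In 7 of 8 comparisons Irs1 was therefore not lower in the group labelled KO, though some of these differences were small. The log2 differences of 1.12 ± 0.45 in WAT under AL, and of 0.53 ± 0.50 in liver and 0.09 ± 0.33 in skeletal muscle under DR, were not called. That of 1.35 ± 0.40 in brain under DR was called higher, as were 151 of 15262 entries there. An FPKM over the whole gene does not show which part of it was deleted, and directions below are those of the labelled groups.

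The labelled tissue matched its defining markers. Adiponectin (Adipoq) stood at 7999 FPKM in WTDR and 5232 in KODR, the fatty acid binding protein Fabp4 at 9788 and 7051, and the lipid droplet coat perilipin (Plin1) at 1169 and 999.6. Of 12 adipocyte markers, 11 were lower in KODR (all entries 43.5%). The Wald test with Benjamini-Hochberg adjustment called 0 of them, and 0 had an unadjusted p under 0.05. Their median log2 difference was -0.32 against 0.09 for all entries tested. The exception in direction was Cidec, a lipid droplet fusion protein, with a log2 difference of 0.64 ± 2.98. In pooled tissue RNA, fewer cells of a type and less RNA per cell cannot be told apart.

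The test called 42 entries, or 0.283% of those tested. Of these 32 were higher in KODR (0.216% of those tested) and 10 lower (0.0675%). At an unadjusted p under 0.05 there were 167 higher (1.13%) and 56 lower entries (0.378%). The higher entries held genes of steroid hormone synthesis and of the ovary (Cyp11a1, Inha, Mgarp), secretory epithelium (Krt18, Ltf, Padi1), antibodies (Ighg1, Igkv3-2), fast muscle fibres (Myh1) and the glucocorticoid response (Fkbp5). The lower entries held the hepatic methionine adenosyltransferase Mat1a and the matrix proteoglycan lumican (Lum). Small RNA genes made up 4 of the higher and 4 of the lower calls. Protein-coding genes with an entry of their own made up 22 and 3. The highest of the 4 WAT groups was KODR for 25 of the 32 higher entries (all tested entries 24.2%). These 32 were selected for KODR above WTDR, which by itself favours that count. In the plot of both values, the 6 entries with the largest ratios lie below an FPKM of 2 in WTDR. With a t distribution on 3 degrees of freedom, from the 5 labelled libraries, only Hist1h4i, Gm20721 and Ighj2 stayed called, the entries whose SD was under 1% of the FPKM in both groups. Intervals that do not overlap, used in place of a test, left out Inha, Mgarp, Prss35, Ltf, Padi1, Hsd11b2, Igkv3-2 and the Cyp11a1 entry.

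**Figure D1:**
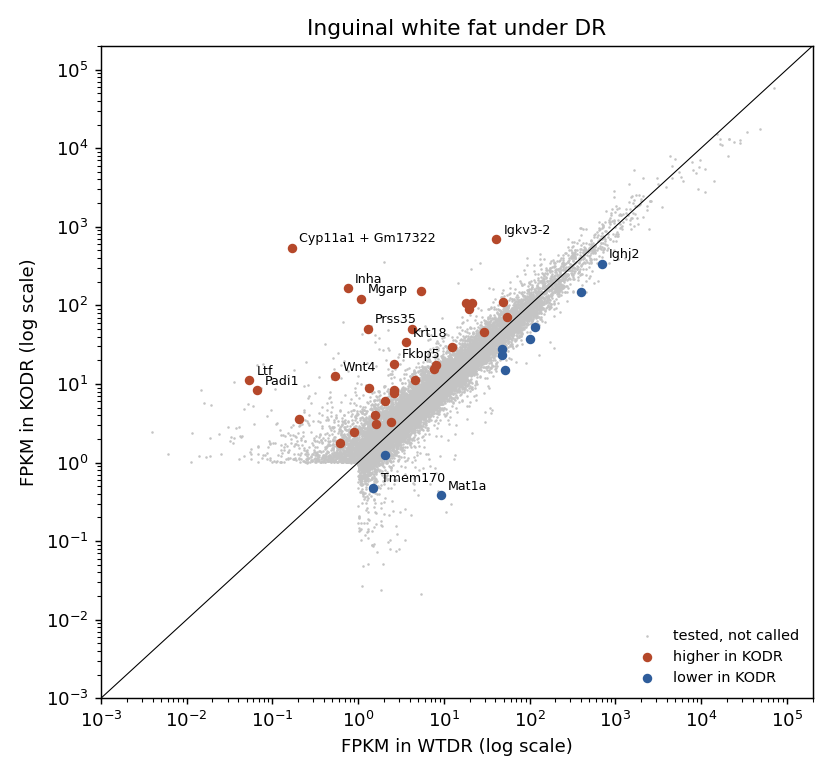
FPKM of each of the 14820 tested entries in WTDR (x axis) and KODR (y axis), both on log scales, with the line of equal values. Grey points were not called, the 32 red points were called higher and the 10 blue points lower in KODR, and the entry of Cyp11a1 lies farthest from the line at 0.168 and 543.

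The largest differences were those of genes that steroid-making cells of the ovary express. Cyp11a1, the cholesterol side-chain cleavage enzyme that starts steroid synthesis, shares an entry with the long noncoding RNA gene Gm17322 (GRCm38 chr9:57998041-58027023). Its FPKM was 0.168 (0 to 0.631) in WTDR and 543 (0 to 2362) in KODR, a log2 difference of 11.66 ± 3.13 with an adjusted p of 0.0753 (Wald test). Inha, the alpha subunit of the ovarian hormone inhibin (chr1:75507077-75510366), rose from 0.754 (0 to 1.71) to 164 (0 to 462), a log2 difference of 7.77 ± 1.60 with an adjusted p of 0.000832 in the same test. For both genes the lower bound in KODR was 0, and the SD of the KODR value of Cyp11a1 was larger than the value itself. Whether 1 of the 3 KODR libraries or all of them carried these transcripts cannot be told apart from pooled values.

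Mgarp and Prss35 were the other called entries of this kind. Mgarp, a mitochondrial protein abundant in steroid-making tissue, had an FPKM of 1.08 (0 to 2.45) in WTDR and 121 (0 to 394) in KODR, a log2 difference of 6.81 ± 1.86 with an adjusted p of 0.0922 in the Wald test. Prss35, a protease-like protein of the ovary, stood at 1.30 (0 to 2.71) and 50.5 (0 to 131), a log2 difference of 5.28 ± 1.40 with an adjusted p of 0.0673 in the same test. Mgarp, the call nearest the threshold, was lost when differences were centred on the median of all entries, with a pseudocount of 1 and when small RNA entries were left out, among others. Hsd3b1, which makes progesterone from pregnenolone, was listed at 0 in WTDR, WTAL and KOAL and at 335 (0 to 1185) in KODR. It was the highest single-gene entry among those listed at 0 in WTDR and could not be tested.

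A list of 20 ovarian and steroid-making genes, written after these values were seen, describes the group further. Of its 13 tested members, 4 were called higher (all entries 0.216%) and all 13 had a positive difference (all entries 56.5%), with a median of 5.28. KODR had the highest value of the 4 WAT groups for 18 of the 20 members, compared with 24.2% of all tested entries. Of the 20 members 14 were below 1 FPKM in WTDR and 3 in KODR. A member below 1 in WTDR could be tested only with a higher KODR value. The list was also chosen on these values, so the counts and the median are a description. Summed over the list, the FPKM was 33.3 in WTDR, 17.3 in WTAL, 26.9 in KOAL and 1370.5 in KODR. Under AL the sums of both genotypes were close to that of WTDR, so the high sum was that of KODR alone.

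Further members were high in KODR without being called. Nr5a1, the nuclear receptor SF-1 that switches on steroid-making genes, stood at 0.0747 (0 to 0.269) in WTDR and 8.99 (0 to 19.9) in KODR, a log2 difference of 6.91 ± 2.07. Star, which carries cholesterol into mitochondria, stood at 1.26 (0 to 2.99) and 18.7 (0 to 41.0), and Akr1c18, which inactivates progesterone, at 0.0783 (0 to 0.338) and 17.7 (0 to 42.2). None of the 3 was called, with adjusted p values of 0.228, 0.646 and 0.549 in the Wald test. The granulosa cell genes Amh and Hsd17b1 were listed at 0 in WTDR and at 10.2 (0 to 25.1) and 7.45 (2.70 to 12.2) in KODR. Lhcgr, the receptor of luteinising hormone, had 0.0186 and 1.196, and the transcription factor Gata4 0.385 and 5.02. Foxl2, which maintains granulosa cells, was at 0 in WTDR and 4.15 in KODR but also at 5.27 in KOAL.

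A few members were low or close in value in both groups. Cyp17a1, which makes androgens, was at 0.299 in WTDR and 0.291 in KODR, and aromatase (Cyp19a1) at 0 and 0.391. Inhbb, an inhibin and activin subunit that fat cells also make, had 23.1 and 23.5. Of 6 genes known from the adrenal cortex, listed after the values were seen, 4 were below 1 FPKM in KODR, among them the enzymes Cyp21a1 at 0.0495 and Cyp11b1 at 0.600. The corticotropin receptor Mc2r and its accessory protein Mrap, which fat cells also express, stood at 15.5 and 539.6 in WTDR and at 11.2 and 275 in KODR, neither called. The summed FPKM of this list was 555 in WTDR and 288 in KODR. Genes of the oocyte, also listed after the values were seen, had low levels that were highest in KODR of the 4 WAT groups for 9 of 10. Their summed FPKM was 1.65 in WTAL, 0.979 in KOAL, 0.878 in WTDR and 7.33 in KODR. Listed at 0 were 6 of the 10 in WTDR and 0 of the 10 in KODR. In KODR 8 were below 1 FPKM, and the highest, the growth factor Gdf9, stood at 0.577 in WTDR and 3.02 in KODR.

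**Figure D2:**
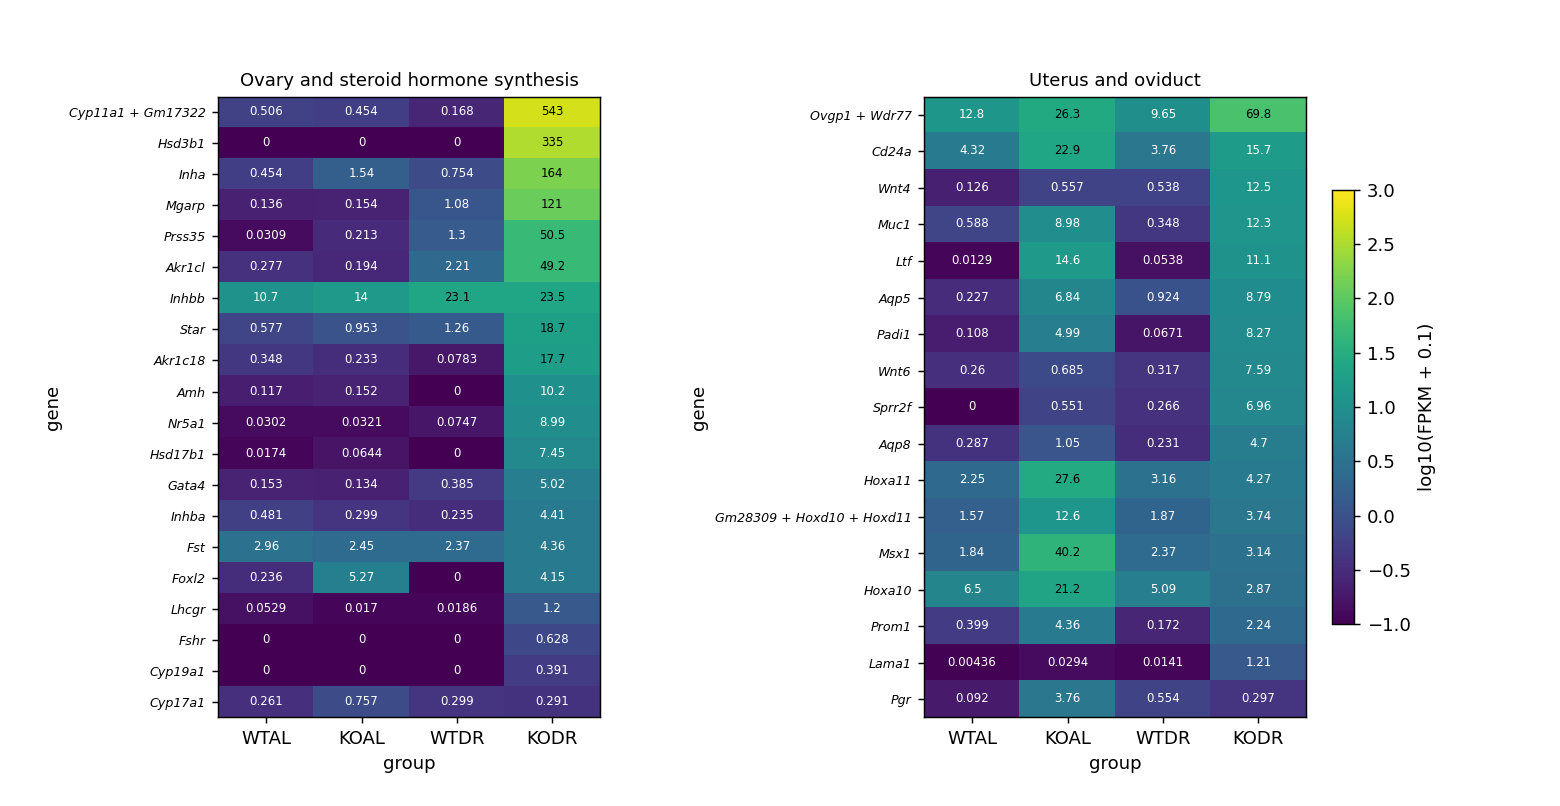
FPKM (printed in each cell, colour on a log10 scale after adding 0.1) of the ovary and steroid hormone list and of the uterus and oviduct list in the 4 WAT groups, rows ordered by the KODR value. Cyp11a1, Hsd3b1, Inha and Mgarp pass 100 FPKM in KODR alone, whereas Ltf, Padi1 and Muc1 are high in both KOAL and KODR and Hoxa11, Msx1 and Pgr in KOAL alone.

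The promoters of the list were searched for AGGTCA, the core letters of the element that Nr5a1 and other nuclear receptors bind, on both strands. RefSeq held 16 windows (GRCm38.p6), from 250 bases before to 50 after a start, for 13 of the 20 genes. Of these 16 windows 5 contain the letters, each of another gene, while 16.3% of all 32851 windows do. The longer form AAGGTCA, which holds the same core, is in 4.72% of all windows and in none of those 13 genes. The 4 windows below are those of the genes with the higher KODR values, printed along the strand of the gene with the searched letters in capitals, to show where the match lies.
Inha: ttggggattggcAGGTCAactttgaagagt
Cyp11a1: gaggaaggggggAGGTCAccgctccatcag
Akr1c18: agagaatcttctAGGTCAgagcagtggctg
Lhcgr: ggccacagtcccAGGTCAaggagaacaggg
The Inha window is at chr1:75507528-75507557 on the plus strand, with the match beginning 69 bases before the RefSeq start. That of Cyp11a1 is at chr9:58014912-58014941 on the plus strand, 28 bases before a start. That of Akr1c18 is at chr13:4150602-4150631 on the minus strand, 28 bases after the start, and that of Lhcgr at chr17:88792119-88792148 on the minus strand, 122 bases before the start. A match is a description of the letters and not of binding.

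Genes of glandular epithelium formed the next group of higher entries. Krt18, a keratin of simple epithelia, rose from 3.61 (1.05 to 6.17) in WTDR to 34.2 (6.54 to 61.9) in KODR (log2 difference 3.24 ± 0.78, adjusted p of 0.0178, Wald test). Lactotransferrin (Ltf), an iron-binding secretion of milk and of the uterus, rose from 0.0538 (0 to 0.193) to 11.1 (0 to 22.4), a log2 difference of 7.68 ± 2.01 with an adjusted p of 0.0612 in the same test. Padi1, a peptidylarginine deiminase of uterine epithelium, rose from 0.0671 (0 to 0.220) to 8.27 (0 to 18.7), a log2 difference of 6.95 ± 1.88 with an adjusted p of 0.0809 in the same test. The intervals of Krt18 did not overlap, while those of Ltf and Padi1 began at 0 in both groups.

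Unlike the ovarian genes, these were also high in the other KO group. Krt18 stood at 2.54 in WTAL and 35.3 in KOAL, Ltf at 0.0129 and 14.6, and Padi1 at 0.108 and 4.99, and the 3 were called under AL too. Hsd11b2, which inactivates glucocorticoids in epithelia and was named after its value was seen, went from 0.202 (0 to 0.416) in WTDR to 3.58 (0.132 to 7.03) in KODR, and from 0.693 in WTAL to 31.4 in KOAL. In all, 8 of the 32 higher entries were also called higher in KOAL than in WTAL, where 1.29% of tested entries were called in either direction.

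Of 10 tested mammary epithelium markers, 2 were called higher (Krt18 and Ltf, all entries 0.216%) and 0 lower, and the median log2 difference was 2.89. Of the 20 markers 14 were below 1 FPKM in WTDR and 9 in KODR. Some, such as Ltf and Epcam, were therefore tested only through their KODR value, which favours a positive median. Krt8 stood at 3.04 and 17.8 and the adhesion molecule Epcam at 0.0599 and 5.31, with adjusted p values of 0.16 and 0.124 (Wald test). The defining milk protein genes Wap and Csn1s1 were at 0 in all 4 WAT groups, Csn2 and Csn1s2a were at 0 in KODR, and Csn3 was at 0.0190. Summed over the markers, the FPKM was 44.4 in WTDR and 142 in KODR.

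Genes known from uterus and oviduct, listed after the values were seen, gave 3 called higher of 16 tested (all entries 0.216%). Their median log2 difference was 4.02. Of the 17 entries of this list 11 were below 1 FPKM in WTDR and 1 in KODR, so the filter favoured positive differences. Summed over the list, the WAT FPKM was 31.4 in WTAL, 197 in KOAL, 29.4 in WTDR and 175 in KODR. In skeletal muscle the sums were 187 in WTDR and 148 in KODR, so a sum over this list is not particular to the reproductive tract. Liver had 70.1 and 50.9 and brain 29.8 and 42.3. The called members were Ltf, Padi1 and Wnt4. In muscle Ltf stood at 0.206 in WTDR and 1.62 in KODR and Padi1 at 0.646 and 0.476. The muscle sum therefore does not describe each member. Wnt4, a signal that shapes the female reproductive tract and the mammary ducts, had 0.126 (0.0139 to 0.239) in WTAL, 0.557 (0.0970 to 1.02) in KOAL, 0.538 (0.050 to 1.03) in WTDR and 12.5 (3.73 to 21.2) in KODR. The log2 difference under DR was 4.53 ± 0.83, with an adjusted p of 4.12e-05 in the Wald test. Its KODR interval lay above those of the other WAT groups, while skeletal muscle stood at 9.50 in WTDR and 14.1 in KODR. Muc1, a mucin of the epithelial surface, stood at 0.348 and 12.3 under DR and 0.588 and 8.98 under AL, and the water channel Aqp5 at 0.924 and 8.79, then 0.227 and 6.84. Hoxa11 and Msx1, transcription factors of the uterine stroma, were at 4.27 and 3.14 in KODR but 27.6 and 40.2 in KOAL. Which tissue these transcripts came from was not tested, and their part in the other results was not tested.

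Fkbp5, a co-chaperone of the glucocorticoid receptor that glucocorticoids induce, rose from 2.66 (1.53 to 3.78) FPKM in WTDR to 18.02 (9.61 to 26.4) in KODR. That is a 6.79-fold difference (log2 difference 2.76 ± 0.46, adjusted p of 1.57e-06, Wald test), with intervals that did not overlap. WTDR had the lowest value of the 4 groups, since WTAL stood at 6.46 (2.99 to 9.93) and KOAL at 9.83 (7.41 to 12.3). Of 15 glucocorticoid response genes, 1 was called higher (all entries 0.216%) and 13 had a positive difference (all entries 56.5%), with a median of 0.56. The kinase Sgk1 stood at 3.39 and 20.0 FPKM and the secreted lipocalin Lcn2 at 1.75 and 38.0, with log2 differences of 2.56 ± 1.29 and 4.44 ± 1.35 that were not called. The metallothioneins Mt1 and Mt2 were at 68.5 and 161 and at 25.3 and 93.6, in both genotypes below their AL levels. The receptor itself, Nr3c1, stood at 17.7 and 10.7 and was not called.

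Tmem86a, an enzyme that breaks down lysoplasmalogen lipids, was level in the 3 other groups and high in KODR. Its FPKM lay between 18.2 and 20.9 in WTAL, KOAL and WTDR and reached 108 (64.5 to 152) in KODR, against 18.2 (11.4 to 24.9) in WTDR, a log2 difference of 2.57 ± 0.39 with an adjusted p of 1.09e-07 in the Wald test. The homeobox gene Hoxd9 rose from 2.64 (1.97 to 3.30) to 8.36 (7.74 to 8.97) and the myelin and lipid raft protein Pllp from 2.07 (1.49 to 2.65) to 6.03 (5.40 to 6.67). Ckap4, an endoplasmic reticulum membrane protein, rose from 4.60 (3.11 to 6.09) to 11.1 (8.81 to 13.3), Saysd1 from 1.59 (1.18 to 2.00) to 4.05 (3.65 to 4.45), and the spliceosome subunit Snrpd1 from 2.61 (1.63 to 3.59) to 7.77 (6.01 to 9.54). These 5 genes were between 2.40 and 3.17-fold higher, in each case with intervals that did not overlap. The lysosomal protease legumain (Lgmn) and the antibody receptor Fcgr4, named after their values were seen, rose from 8.08 to 17.3 and from 0.894 to 2.46. Of 19 macrophage markers 0 were called and 15 were higher (all entries 56.5%), with a median log2 difference of 0.48.

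**Figure D3:**
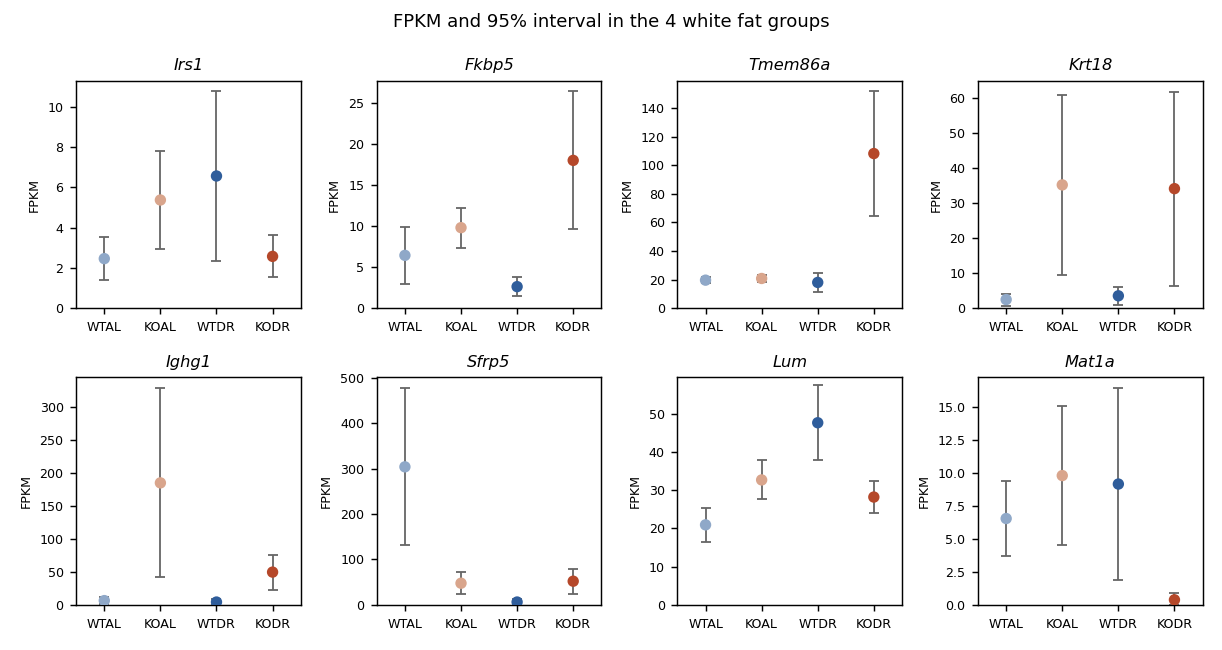
FPKM (y axis, from 0) with the authors' 95% interval for 8 genes in WTAL, KOAL, WTDR and KODR. Fkbp5 and Tmem86a are highest in KODR, Krt18 and Ighg1 are high in both KO groups, Sfrp5 is highest in WTAL and lowest in WTDR, and Mat1a is lowest in KODR.

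Of the antibody genes, Ighg1 and Igkv3-2 rose. The heavy chain constant gene Ighg1 rose from 4.27 (0 to 9.07) to 49.6 (23.2 to 76.1), a log2 difference of 3.54 ± 0.90 with an adjusted p of 0.04 in the Wald test, and stood at 185 (41.5 to 328) in KOAL. The light chain segment Igkv3-2 rose from 40.8 (0 to 86.3) to 700.1 (84.7 to 1316), a log2 difference of 4.10 ± 1.02 with an adjusted p of 0.034 in the same test, below its AL values of 1015 and 873. Of 17 B cell and antibody genes, 1 was called higher (all entries 0.216%) and 15 had a positive difference (all entries 56.5%), with a median of 0.96. Igha stood at 12.9 and 31.2 and Ighg2c at 14.8 and 191, both uncalled. Of the T cell and lymph node markers, 11 of 12 were higher (all entries 56.5%) and 0 called. The joining segment Ighj2 went the other way, from 699 (692 to 706) to 340.3 (335 to 346), but was listed at 0 in WTAL and KOAL. Ighj4 was listed at 0 in WTDR and 296 (288 to 305) in KODR, and at 1049 in WTAL and 810 in KOAL. Joining and variable segments are short, differ between B cell clones and can share reads with near-identical segments.

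Myh1, the myosin heavy chain of fast muscle fibres, rose from 1.33 (0.136 to 2.53) to 8.92 (4.79 to 13.0), a log2 difference of 2.74 ± 0.73 with an adjusted p of 0.0695 in the Wald test. It was the one call among 19 tested skeletal muscle markers (all entries called higher 0.216%). Of these markers 16 were higher in KODR (all entries 56.5%), with a median of 0.70. Muscle markers were present in both groups, with a summed FPKM of 562 in WTDR and 946 in KODR, and 557 and 1653 in WTAL and KOAL. Their part in the result was not tested. Creatine kinase (Ckm) stood at 114 and 81.0, and troponin I (Tnni2) at 29.6 and 50.2, with no call.

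Among the lower entries, Mat1a makes S-adenosylmethionine in liver. Its FPKM fell from 9.16 (1.90 to 16.4) in WTDR to 0.383 (0 to 0.911) in KODR, a 23.9-fold difference (log2 difference -4.58 ± 1.15, adjusted p of 0.034, Wald test). In WTAL and KOAL it stood at 6.55 (3.68 to 9.41) and 9.80 (4.56 to 15.0), so KODR was the one WAT group with a low value. Skeletal muscle of the restricted mice had the same direction, with 22.4 in WTDR and 1.32 in KODR, a log2 difference of -4.09 ± 0.72 that was called (1.35% of entries were called lower there). The difference in WAT less that in muscle was -0.49 ± 1.35 and was not called. Most markers of liver had lower values beside Mat1a in WAT. Of 12 tested, 0 were called and 10 were lower in KODR (all entries 43.5%), with a median of -1.82. Of the 12, 5 were lower at an unadjusted p under 0.05, where 0.378% of all tested entries were. Albumin (Alb) stood at 192 (0 to 519) in WTDR and 28.5 (13.5 to 43.4) in KODR, and at 204 and 203 in WTAL and KOAL. Fibrinogen (Fga) stood at 13.5 and 1.25 and the antitrypsin Serpina1a at 29.9 and 3.25. The entry of transferrin (Trf), which joins it with Gm20425 and Srprb, stood at 1891 and 2569.8 in WAT and makes up most of the sum there. Summed over the liver markers, the FPKM was 2417 in WTDR and 2787 in KODR for WAT, and 3674 and 345 for muscle. The part of liver transcripts in the fall of Mat1a was not tested.

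Lumican (Lum), a collagen-binding proteoglycan of the stroma (chr10:97565501-97572703), fell from 47.7 (37.9 to 57.5) in WTDR to 28.2 (24.1 to 32.3) in KODR (log2 difference -0.76 ± 0.18, adjusted p of 0.0188, Wald test). Under AL it was higher in the KO group, at 20.9 (16.4 to 25.4) in WTAL and 32.7 (27.6 to 37.8) in KOAL. It was the one call among 20 stromal and matrix markers (all entries called lower 0.0675%), whose median of -0.06 lay close to that of all entries. Tmem170, a membrane protein named after its value was seen, fell from 1.51 (0.977 to 2.04) to 0.478 (0.251 to 0.704), and the entry that joins the microtubule-binding protein gene Eml2 with the microRNA gene Mir330 fell from 51.8 (32.8 to 70.8) to 15.2 (6.82 to 23.6). The other lower entries were WI1-1616M8.3, from 2.06 (1.68 to 2.43) to 1.25 (1.02 to 1.47), Ighj2 and 4 small RNA genes.

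Of the small RNA genes, whose transcripts mostly lack a poly(A) tail, 4 rose and 4 fell. Snord13 had 21.4 (18.4 to 24.5) FPKM in WTDR and 106 (92.0 to 121) in KODR, and Snord118, the U8 RNA that ribosome assembly uses, 12.4 (9.35 to 15.5) and 29.3 (19.9 to 38.7). Scarna17, which guides modification of spliceosomal RNA, had 29.8 (25.9 to 33.7) and 46.3 (40.5 to 52.0), and the mitochondrial glycine transfer RNA gene mt-Tg 54.4 (49.8 to 58.9) and 70.9 (67.5 to 74.3). The annotated microRNA gene Gm23935 fell from 395 (365 to 424) to 148 (139 to 157) and the mitochondrial arginine transfer RNA gene mt-Tr from 117 (112 to 121) to 53.5 (50.04 to 56.9). Snord100 fell from 101 (76.3 to 125) to 37.7 (30.1 to 45.4) and Snord7 from 47.2 (37.9 to 56.6) to 23.2 (18.5 to 27.96), so both Snord and transfer RNA genes were found in each direction. Snord100 and Snord7 were listed at 0 in WTAL and KOAL. Their entries span chr10:23785211-23787195 and chr11:83291699-83294632, and that of Gm23935 spans chr16:11136592-11176393. These are longer than the entry of Snord13 (chr8:31149864-31149967). Whether other transcripts within the longer spans added to the values was not tested. Of the 42 calls, 10 had an SD under 10% of the FPKM in both groups, 5 of these small RNA genes. With a floor of 10% on the SD, chosen after seeing the data, 27 higher and 8 lower calls were left. The remaining higher entries were chosen after their values were seen. The histone H4 gene Hist1h4i had 1.61 (1.60 to 1.62) and 3.06 (3.05 to 3.08), Gm20721 49.6 (49.5 to 49.6) and 110.3 (110.2 to 110.4), and the NEDD8-activating enzyme subunit Uba3 2.45 (2.15 to 2.75) and 3.32 (2.97 to 3.67). Fam96a stood at 7.70 (5.59 to 9.82) and 15.4 (14.5 to 16.3) and the macro-histone gene H2afy2 at 0.609 (0.274 to 0.943) and 1.77 (1.56 to 1.97). Entries that join a small RNA gene with its host were those of Gm24574 with Hnrnpa3, at 5.36 (0 to 13.6) and 154 (138 to 171), and of Gm24067 with Ppan, at 19.7 (4.17 to 35.3) and 90.4 (68.8 to 112), in which the parts of the 2 genes cannot be told apart.

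Among single-gene entries listed at 0 in 1 of the groups, mt-Tn, Snord92, mt-Ty, Snord49b and Gm23787 had the highest WTDR values (49.2 to 202), and Gm24187, Scarna9 and Gm24270 followed Hsd3b1 and Ighj4 in KODR (102 to 125).

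No gene of insulin signalling was called. Of 19 genes tested, 14 were lower in the group labelled KODR (all entries 43.5%), with a median of -0.35. The Wald test called 0 of them, and 1 (Irs1 itself) had an unadjusted p under 0.05. The insulin receptor (Insr) stood at 8.35 (0 to 17.7) in WTDR and 6.11 (1.86 to 10.4) in KODR, and the glucose transporter Slc2a4 at 152 and 85.5. The substrates that could act beside IRS1 had 13.3 (0 to 28.8) and 19.7 (10.8 to 28.5) for Irs2 and 70.0 (5.52 to 135) and 55.0 (22.7 to 87.2) for Irs3, neither called. Grb14, an inhibitor of the receptor, had the largest positive difference, 2.46 ± 1.45, with 2.44 and 13.4 FPKM.

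No gene of the lipid and glucose lists was called by the Wald test or had an unadjusted p under 0.05. Of 17 fatty acid synthesis genes, 11 were lower in KODR (all entries 43.5%), with a median of -0.18. The elongase Elovl6 stood at 126 (0 to 255) in WTDR and 160.4 (0 to 365) in KODR, above 3.44 in WTAL, and ATP citrate lyase (Acly) at 748 and 319. The lipogenic factor Thrsp stood at 858 and 1276. Fatty acid synthase (Fasn) had 3904 and 3218, but its SE of 15.00 on the log2 scale means that a difference was not detectable. The medians were -0.24 for 17 triglyceride and lipid droplet genes, -0.29 for 13 lipolysis genes, -0.35 for 19 sterol synthesis genes, 0.21 for 17 fatty acid oxidation genes and 0.07 for 19 glucose use genes. The last changed sign when differences were centred on the median of all entries. The beta-3 adrenergic receptor (Adrb3), which starts lipolysis in mouse fat, had the lowest difference of its list, -1.15 ± 0.96, at 407 and 184 FPKM.

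Among 12 adipokines, 7 were higher in KODR (all entries 56.5%), with a median of 0.24. Of these 12, 0 were called and 2, Sfrp5 and Lcn2, had an unadjusted p under 0.05 in the Wald test. Sfrp5, a secreted WNT inhibitor, stood at 6.26 (0 to 13.1) in WTDR and 52.1 (24.5 to 79.7) in KODR (log2 difference 3.06 ± 0.87, adjusted p of 0.138, Wald test), and at 304 (131 to 477) in WTAL and 47.7 (23.5 to 71.8) in KOAL. Both KO groups therefore lay between the low WTDR and the high WTAL value. Of 11 genes that track fat expansion, 5 were higher, with a median of -0.02 that changed sign without the filter on low FPKM. Wisp2 had 93.5, 17.4, 8.52 and 33.5 in WTAL, KOAL, WTDR and KODR, and Mest 391, 152, 47.6 and 143. Leptin (Lep) was at 158 (1.62 to 314) and 260.3 (0 to 732) under DR, and was not called. Of 8 tested brown and beige fat genes, 4 were lower and 0 called. The uncoupling protein Ucp1 stood at 11.8 and 4.48, Cidea at 62.5 and 32.1 and the elongase Elovl3 at 4.52 and 14.7, none of them called. The potassium channel Kcnk3 stood at 9.10 (5.07 to 13.1) and 16.2 (14.5 to 17.99), a log2 difference of 0.83 ± 0.33 with an unadjusted p of 0.0112 in the Wald test.

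The remaining lists had 0 calls among 10 mitochondrially encoded entries, 19 nuclear respiratory chain, 21 ribosomal protein, 17 circadian clock, 15 immediate early, 17 stress response, 19 chaperone, 13 IGF axis, 17 acute phase, 9 MHC class II, 11 endothelial, 1 sex chromosome and 7 red blood cell genes. At an unadjusted p under 0.05 in the Wald test there were 2 stress response and 2 acute phase genes, all higher, and 0 in the other lists just named. All 10 mitochondrially encoded entries were lower in KODR (all entries 43.5%), with a median of -0.87, from -1.99 for mt-Nd5 to -0.01 for mt-Co1. By contrast the nuclear respiratory chain had a median of -0.15. All 7 red blood cell genes were higher (median 0.79), as were 17 of 21 ribosomal protein genes (median 0.30) and 56.5% of all entries. Neither the mitochondrially encoded nor the red blood cell direction was particular to WAT. Summed red blood cell FPKM in WTDR and KODR was 3482 and 12080 in liver, 1667 and 20415 in muscle, and 1096 and 3577 in brain. Mitochondrially encoded sums were 224429 and 178288 in liver, 430779 and 236866 in muscle, and 83764 and 16934 in brain. Of the stress genes, Gadd45g stood at 7.14 and 42.5 and Ddit4 at 8.23 and 29.5, and of the acute phase genes Serpina3g at 1.69 and 5.15 and Saa1 at 3.01 and 0.0784, none called.

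**Figure D4:**
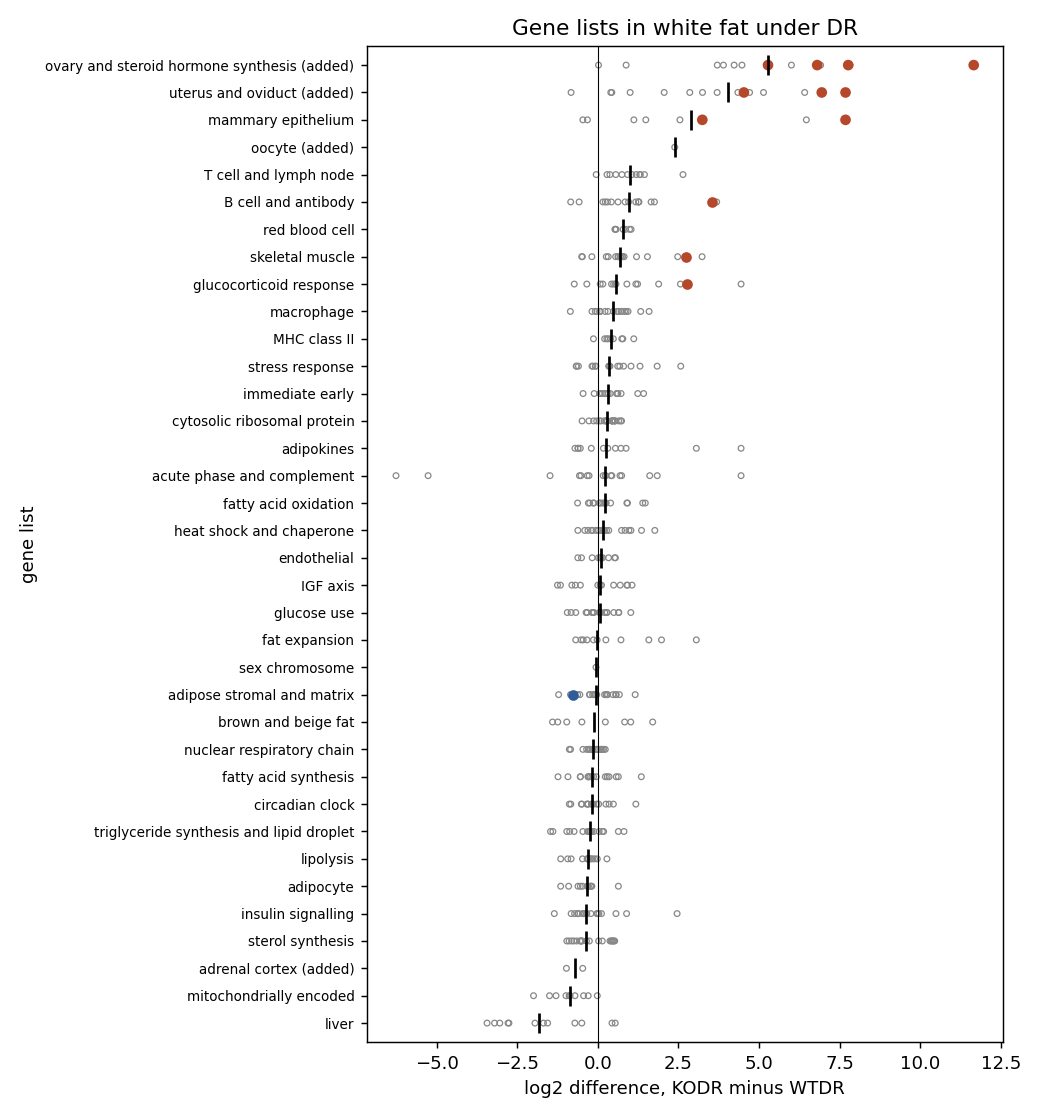
Log2 difference between KODR and WTDR (x axis) of each tested gene, by list (y axis), ordered by the list median (black tick). Filled points were called (red higher, blue lower), open points were not, and lists marked as added were written after the values were seen, with medians from -1.82 for liver to 5.28 for the ovary and steroid hormone list.

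Whether the genotype difference under DR differed from that under AL was tested as the difference of both log2 differences. The Wald test called 19 of 15727 entries (0.121%), 10 more positive and 9 more negative under DR. Of the 42 entries called under DR, 10 were among them. The single-gene entries with the largest positive values were the light chain segment Igkv17-121 at 7.93 ± 1.76, Sfrp5 at 5.73 ± 1.03, Snord13 at 2.89 ± 0.33, the guanine nucleotide exchange factor gene Dock8 at 2.87 ± 0.72 and Tmem86a at 2.49 ± 0.41. Sfrp5 had a genotype difference of -2.67 ± 0.55 under AL and 3.06 ± 0.87 under DR, whereas Tmem86a differed by 0.08 ± 0.12 under AL.

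The most negative single-gene entries were those of the muscle genes Myh4 at -9.07 ± 1.64 and Ckm at -6.57 ± 1.36, followed by the mitochondrial carrier Slc25a48 at -5.82 ± 1.48, Mat1a at -5.16 ± 1.25 and Hoxa10 at -2.53 ± 0.47. For Myh4 and Ckm the genotype difference of 9.62 and 6.07 lay in the AL groups, from 0.0699 to 55.0 and from 2.204 to 148 FPKM, while under DR both genotypes had muscle transcripts. Mat1a and Lum were the protein-coding genes called both here and under DR with a negative sign, Lum at -1.40 ± 0.26. The ovarian genes were not called here. Inha, for example, had a difference of 6.01 ± 1.98 and an adjusted p of 0.736 (Wald test), and Cyp11a1 one of 11.82 ± 3.62 with an adjusted p of 0.426 in the same test. Fkbp5 had 2.16 ± 0.62 with an adjusted p of 0.261 in the Wald test.

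The genotype difference under DR was set against that of the other tissues in the same way. It differed from liver in 6 entries (0.0393% of 15249), from skeletal muscle in 24 (0.155%) and from brain in 9 (0.0557%). Wnt4 and Gm20721 were called against all 3 tissues with a more positive value in WAT. Wnt4 was 4.53 ± 0.83 in WAT, and exceeded the difference in liver by 4.31 ± 1.01, in muscle by 3.96 ± 0.87 and in brain by 4.49 ± 0.92. Inha exceeded muscle by 8.07 ± 1.76 and brain by 6.96 ± 1.65. Its brain values were 11.0 in WTDR and 19.1 in KODR. Fkbp5 exceeded liver by 2.79 ± 0.66 and brain by 2.48 ± 0.59, where the values of both genotypes were close (17.1 and 16.8 in liver, 8.14 and 9.89 in brain). Tmem86a exceeded liver by 2.38 ± 0.50, with 18.1 and 20.7 FPKM there. In skeletal muscle both genes were themselves called higher in KODR, where 0.884% of entries were. Fkbp5 stood at 8.06 in WTDR and 17.8 in KODR there, a log2 difference of 1.15 ± 0.33, and Tmem86a at 5.09 and 11.8, one of 1.21 ± 0.36. Neither was called apart between WAT and muscle. Against skeletal muscle, Pllp had the less positive value in WAT, since it was 0.226 and 1.62 in muscle.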

How the data were processed

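Poly(A)-selected RNA of inguinal white adipose tissue, liver, skeletal muscle and brain was sequenced on an Ion Proton. Per the submitters' processing notes, reads were trimmed with cutadapt 1.5 and expression was estimated with Cuffdiff 2.2.1 on GRCm38. The authors deposited 1 FPKM value per gene and group, with a 95% confidence interval and a status, from the pooled libraries of each of 16 groups. Only status OK values were used.

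The SD of a value was taken as the distance from the FPKM to its upper bound divided by 2, which holds where the lower bound is cut at 0. The SE of a log2 ratio came from both SDs by the delta method, and was used in a Wald test (two-sided), with p-values adjusted after Benjamini and Hochberg over all entries tested (Python 3.11.15, scipy 1.17.1, statsmodels 0.14.6). The p-values rest on the authors' model of the spread, not on single libraries, and whether the libraries came from separate animals is not visible in pooled values. Differences between diets or tissues were tested as differences of log2 differences. The procedure was run on simulated data drawn with the spread of the authors' intervals. Such data cannot show whether that spread holds for 2 or 3 libraries.

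Genes were named by a rule: the 15 largest called single-gene entries in each direction with FPKM of at least 1 in both groups, the 5 highest listed at 0 in the other group, the 5 largest differences between diets in each direction, members of fixed gene lists, and Irs1. The comparison and the 32 fixed lists were chosen with earlier results of these data known. The lists for ovary, oocyte, adrenal cortex and uterus with oviduct, and genes named outside the rule, were chosen after these values were seen. Entries that join several genes were kept, promoter windows came from RefSeq, and the alternatives tried are described at the end. Values per library were not analysed here.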

Additional observations from a re-analysis of the deposited data

Results flagged for a closer look

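For 19 entries in white fat the Wald test found that the difference between genotypes under DR was not the same as under AL (KODR minus WTDR, less KOAL minus WTAL, in log2). More positive under DR were Igkv17-121 at 7.93, the entry of Gm24574 with Hnrnpa3 at 7.51, Sfrp5 at 5.73, Snord13 at 2.89, Dock8 at 2.87, Tmem86a at 2.49, the growth factor gene Hbegf at 2.36, Gm20721 at 1.29, Pllp at 1.09 and Hist1h4i at 1.04. More negative were Myh4 at -9.07, Ckm at -6.57, Slc25a48 at -5.82, Mat1a at -5.16, Hoxa10 at -2.53, RP23-174P13.2 at -1.77, Lum at -1.40, Gm23935 at -1.08 and Scarna17 at -0.97. The homeobox gene Hoxa10 stood at 6.497 FPKM in WTAL, 21.2 in KOAL, 5.09 in WTDR and 2.87 in KODR. It is not particular to the uterus, since skeletal muscle had 8.08 in WTDR and 6.22 in KODR. The carrier Slc25a48 stood at 0.311, 23.2, 1.40 and 1.84, and Dock8 at 15.8, 3.81, 1.03 and 1.82. For Igkv17-121 the values were 61.5, 10.9, 0.579 and 24.9. A test that passes for 0.121% of entries names few genes, and no cause was tested.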

How the results depend on the processing

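The counts moved most with the treatment of the spread. With a t distribution, 2 higher and 1 lower entry were called under DR, 2 differed between diets, and 1, 4 and 1 differed from liver, muscle and brain. With each SE divided by the square root of the labelled libraries, the counts were 122, 46, 188, 70, 193 and 90 in that order. A pseudocount of 0.1 gave 51 higher entries and 16 against brain, and a pseudocount of 1 gave 53 higher, 44 between diets, 11 against liver and 26 against brain. Without small RNA entries, an alternative chosen after seeing the data, 6 lower entries were left. The other settings (an FDR of 5%, other or no filters on FPKM, a 2-fold minimum, centring, joined entries left out, intervals that do not overlap, 1 adjustment over 4 tissues, and a 10% floor on the SD chosen after seeing the data) kept both counts under DR within 1.5 times. Like counts did not mean the same entries. At an FDR of 5%, 11 of the 42 calls were lost, among them the Cyp11a1 entry, Mgarp, Prss35, Ltf, Padi1 and Myh1. List medians that changed sign were those of glucose use (-0.021) and the IGF axis (-0.017) when centred, of fat expansion (0.25), brown and beige fat (0.13), sex chromosome (1.75) and adrenal cortex genes (0.62) without the filter, and of brown and beige fat (0.54) at an FPKM of at least 5. Inhbb went to -0.069 when centred. The causes were not tested.

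No paired analysis was possible because the columns are pooled by group and carry no replicate number, and for the same reason no replicate could be left out. The number of WTDR white fat libraries is 2 in the labels but 3 in the methods text, and the label was used only for the t distribution and the square root. Without values per library, depth gives no floor, and a high value carried by 1 library cannot be told from one shared by all.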

Other observations

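Some genes of the uterus and ovary lists were high in KODR without standing among the calls. Ovgp1, an oviduct glycoprotein whose entry is joined with Wdr77, stood at 12.8 FPKM in WTAL, 26.3 in KOAL, 9.65 in WTDR and 69.8 in KODR. Cd24a, a surface protein of epithelia and B cells, stood at 4.32, 22.9, 3.76 and 15.7. Akr1cl, of the aldo-keto reductase family, stood at 0.277, 0.194, 2.21 and 49.2 in the same order. In the 3 other tissues under DR, the summed FPKM of the ovary and steroid hormone list was 42.5 in WTDR and 82.4 in KODR for liver, 8.49 and 8.76 for skeletal muscle, and 23.8 and 37.3 for brain.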
